A study of Mus musculus with 100 samples.

Results

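The genes described here are 10 genes that mark or control the mesenchymal to epithelial transition, taken by symbol from an expression table of 25965 genes. They are the epithelial genes Cdh1, Epcam and Cldn6, the mesenchymal genes Cdh2 and Vim, and the transcription factor genes Snai1, Snai2, Zeb1, Zeb2 and Twist1. All 10 symbols were found, each in 1 row. RNA was sequenced from 6 groups of mouse cells with 3 libraries each. Female MEFs were embryonic fibroblasts from a single E13.5 female F1 hybrid embryo of an i4F-BL6 mother, which carries a doxycycline-inducible cassette of Oct4, Sox2, Klf4 and c-Myc, and a CAST father. F KSR2 and F KSR4 were induced pluripotent stem cell (iPSC) lines from the same female embryo, and M KSR3 and M KSR5 were lines from a male embryo of the same cross. Each line grew from 1 picked colony after doxycycline induction in knockout serum replacement (KSR) medium with LIF, was moved to feeder cells without doxycycline, and is 1 clone. TX 2i ESCs were female embryonic stem cells of the same cross of strains, grown in serum medium with LIF and the inhibitors CHIR99021 and PD0325901. The donor cells of the male lines were not sequenced, so that for M KSR3 and M KSR5 the sex of the embryo and the change from fibroblast to iPSC cannot be told apart against the female MEFs. KSR-iPSCs and TX 2i ESCs differ both in medium and in origin, which cannot be told apart either.

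In a mesenchymal to epithelial transition, loosely attached fibroblast-like cells take up cell to cell junctions and lose the cytoskeleton and matrix of migrating cells. Fibroblasts pass through this change on the way to iPSCs, and pluripotent cells grow as tight epithelial-like colonies held together by E-cadherin. The factors of the Snail, Zeb and Twist families bind E-box motifs in DNA and repress E-cadherin and other junction genes, and TGF-beta signalling raises the level of several of these factors.

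Levels were given as log2 RPM (reads scaled to a common library total) without correction for gene length, so that a difference of 1 is a 2-fold change. The libraries held between 13183036 and 17921280 reads on genes. All 15 fibroblast marker genes had reads in each MEF library, with a summed level of 26291 to 40122 RPM, against 43.0 to 230 RPM in the 15 pluripotent libraries. The 10 pluripotent cell markers summed to 1.40 to 2.29 RPM in MEFs and to 3974 to 8374 RPM in the pluripotent libraries. In bulk RNA, fewer cells of a type and less RNA per cell cannot be told apart. Cultures of F KSR4 agreed least among themselves, with correlations across genes of 0.89 to 0.92 between its 3 libraries, and the values of F KSR4 replicate 2 are named below where they stand apart.

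All 10 genes differed between MEFs and the pluripotent groups. Cdh1, Epcam and Cldn6 were higher, and Cdh2, Vim, Snai1, Snai2, Zeb1, Zeb2 and Twist1 were lower, in the mean of the 5 pluripotent groups (limma, Benjamini-Hochberg adjusted p over 14632 genes, called under 0.05). For each gene, the 15 pluripotent libraries did not overlap with the 3 MEF libraries. Over all genes tested, 42.1% were called higher and 32.5% lower in this comparison, so that the share of genes called is large for any list. All 10 genes were also called in each group taken alone against MEFs, where 67.5% (F KSR2), 65.8% (F KSR4), 68.5% (M KSR3), 68.4% (M KSR5) and 67.5% (TX 2i ESCs) of all genes were called in either direction. The 5 comparisons share the same MEF libraries. The median log2 difference over all genes tested was 0.21, and centring each library on its median changed no call among the 10 genes here.

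**Figure D1:**
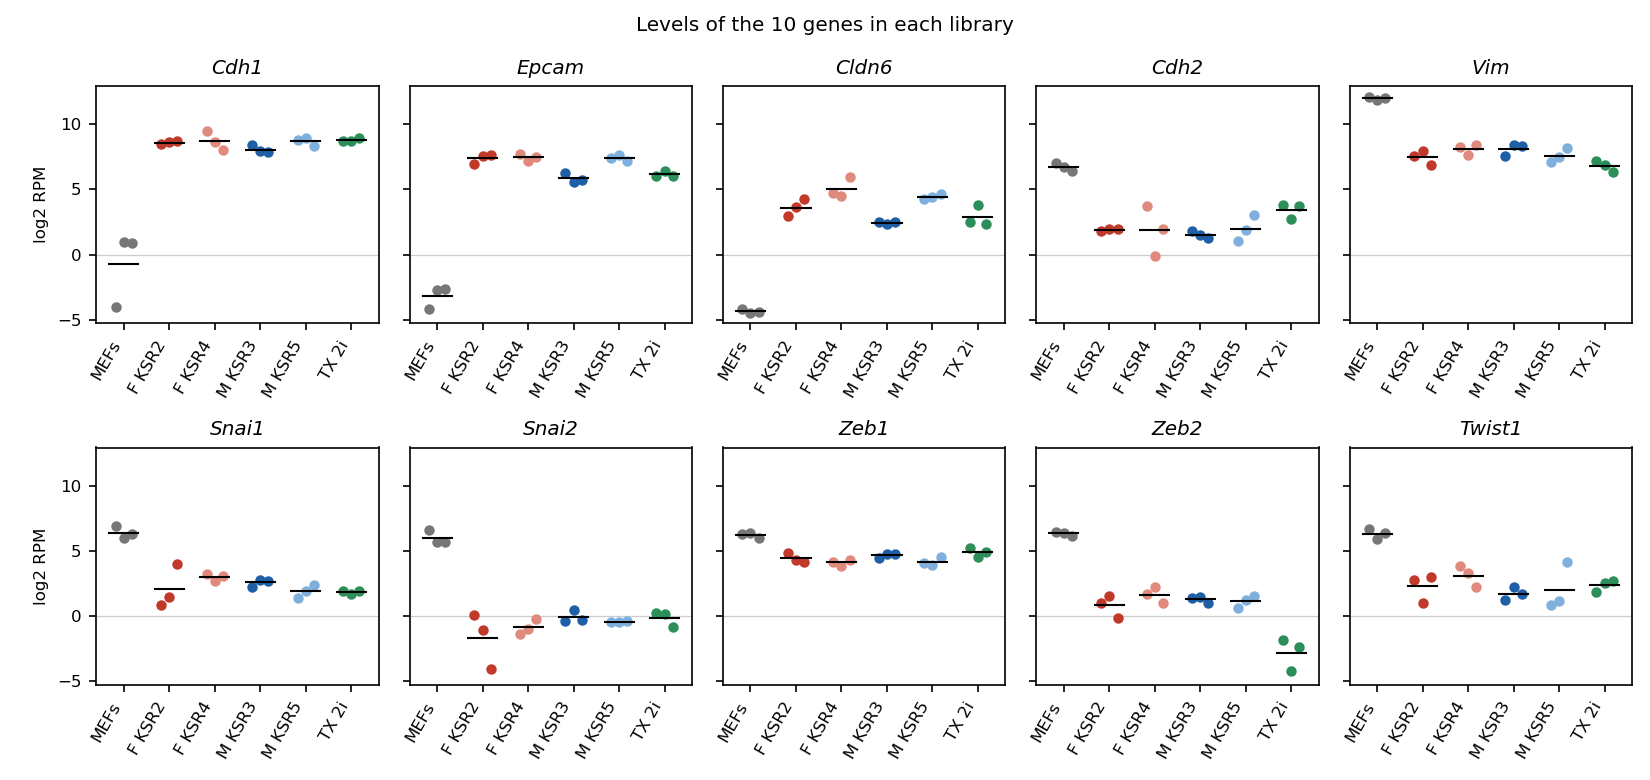
Level of each of the 10 genes (y axis, log2 RPM) in the 18 libraries, by group (x axis). Points are libraries and bars are group means of 3. Cdh1, Epcam and Cldn6 are low in MEFs and high in the other groups, the other 7 genes run the opposite way, and Zeb2 has its lowest values in TX 2i ESCs.

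Cdh1 (chr8:106603351-106670246, plus strand, GRCm38) encodes E-cadherin, the adhesion protein of epithelial junctions. Its log2 RPM was -4.03, 0.95 and 0.92 in the 3 MEF libraries, which is 1, 38 and 36 reads. It was 8.44, 8.64 and 8.68 in F KSR2, 9.45, 8.60 and 8.05 in F KSR4, 8.39, 7.91 and 7.85 in M KSR3, 8.81, 8.96 and 8.29 in M KSR5, and 8.70, 8.68 and 8.91 in TX 2i ESCs. MEF replicate 1 stood apart from the other two MEF libraries, and every pluripotent library was above 7.8. The log2 difference of the pluripotent mean from MEFs was 9.28 ± 0.65 (SE, adjusted p = 7.57e-10), and 7.62 without MEF replicate 1. Summed over libraries, the ratio was 288-fold, with an exact 95% counting interval of 230 to 366. Levels of Cdh1 followed the order TX 2i ESCs, F KSR4, M KSR5, F KSR2, M KSR3 and MEFs. The first 4 of these differed by less than the spread between their libraries, and the libraries of M KSR3 did not overlap with those of F KSR2.

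Of 38 epithelial genes (Cdh1, Epcam, Cldn6 and the 35 of the lists below), 16 had their lowest MEF value in replicate 1, or 42.1%. Among all genes with reads in 2 or more MEF libraries the share was 32.8%. The 38 genes were not filtered by reads, and a gene without MEF reads, such as Cldn6, has its highest held value in replicate 1. The share of 42.1% is thus lowered by such genes and cannot be set directly against 32.8%.

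Epcam (chr17:87635979-87651106, plus strand) encodes an epithelial cell adhesion molecule found on pluripotent cells. MEFs had 0, 3 and 3 reads. The log2 RPM was 6.93, 7.54 and 7.65 in F KSR2, 7.70, 7.21 and 7.50 in F KSR4, 6.24, 5.59 and 5.70 in M KSR3, 7.39, 7.65 and 7.20 in M KSR5, and 5.99, 6.44 and 6.06 in TX 2i ESCs. The groups fell into a higher set of F KSR4, M KSR5 and F KSR2 and a lower set of TX 2i ESCs and M KSR3, with no overlap between the 2 sets and with overlap within each. Against MEFs, the pooled ratio was 1188-fold with an exact 95% counting interval of 546 to 3238 (log2 difference in the fit 10.04 ± 0.26, adjusted p = 1.15e-15).

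Cldn6 (chr17:23679365-23682446, plus strand) encodes claudin 6, a tight junction protein of embryonic epithelia and pluripotent cells. No MEF library had a read. The log2 RPM was 2.94, 3.65 and 4.24 in F KSR2, 4.72, 4.50 and 5.97 in F KSR4, 2.47, 2.36 and 2.50 in M KSR3, 4.25, 4.45 and 4.64 in M KSR5, and 2.52, 3.81 and 2.38 in TX 2i ESCs. The fewest reads of Cldn6 in a pluripotent library were 82, in TX 2i ESCs replicate 3. F KSR4 and M KSR5 overlapped at the top, M KSR5 lay above F KSR2 without overlap, and the groups below overlapped with their neighbours. Against 3 reads summed over the MEF libraries, which is the limit that a count of 0 allows, Cldn6 was at least 306-fold higher over all pluripotent libraries, from at least 99.6-fold in M KSR3 to at least 653-fold in F KSR4. These limits, and the intervals above, cover counting error only. In the fit, the adjusted p of Cldn6 was 9.14e-13.

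The promoters of Epcam and Cldn6 are shown since both genes had at most 3 reads in a MEF library and at least 82 in a pluripotent library. The bases are the 250 before the RefSeq transcript start (GRCm38.p6, plus strand, 5′ to 3′), at chr17:87635729-87635978 and chr17:23679115-23679364. Capitals mark the E-box CACCTG or its reverse complement CAGGTG, the form to which the Snail and Zeb factors bind.
Epcam: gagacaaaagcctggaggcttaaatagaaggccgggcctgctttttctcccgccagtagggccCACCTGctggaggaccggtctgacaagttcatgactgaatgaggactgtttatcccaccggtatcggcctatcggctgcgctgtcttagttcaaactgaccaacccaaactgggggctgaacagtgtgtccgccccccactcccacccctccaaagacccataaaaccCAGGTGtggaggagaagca
Cldn6: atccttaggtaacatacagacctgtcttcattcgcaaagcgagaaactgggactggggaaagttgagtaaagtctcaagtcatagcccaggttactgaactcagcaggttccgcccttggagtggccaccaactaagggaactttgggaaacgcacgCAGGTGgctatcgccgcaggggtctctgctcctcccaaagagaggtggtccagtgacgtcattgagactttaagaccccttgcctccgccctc

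Epcam held the motif at -187 and -19 from the transcript start and Cldn6 at -93. Of 32851 promoters of this length, 17.2% held at least 1 copy and 2.06% held 2 or more. Promoters were matched for 6 of the 10 genes. Of the mesenchymal genes among these, Snai1 held the motif at -126, and Vim, Twist1 and the 4 listed promoters of Zeb2 did not hold it. A match is a description of the letters and not of binding.

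Cdh2 (chr18:16588877-16809246, minus strand) encodes N-cadherin, the cadherin of mesenchymal and neural cells. Its log2 RPM was 6.998, 6.75 and 6.40 in MEFs, 1.77, 1.99 and 1.96 in F KSR2, 3.75, -0.09 and 2.00 in F KSR4, 1.78, 1.52 and 1.26 in M KSR3, 1.07, 1.89 and 3.01 in M KSR5, and 3.81, 2.74 and 3.76 in TX 2i ESCs. Libraries of F KSR4 spread most, from 17 reads in replicate 2 to 244 in replicate 1. The difference from MEFs was -4.57 ± 0.52 (SE, adjusted p = 3.78e-07).

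The difference between Cdh1 and Cdh2 within a library, on the log2 RPM scale, was -7.44 ± 3.12 (SD, n = 3) in MEFs. It was 6.68 ± 0.89 (n = 12) in the KSR-iPSCs and 5.32 ± 0.55 (n = 3) in TX 2i ESCs. Its range was -11.03 to -5.48 in MEFs and 4.89 to 8.69 over the 15 pluripotent libraries. Cdh1 RNA was thus above Cdh2 RNA in each of the 15 pluripotent libraries and below it in each of the 3 MEF libraries.

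Vim (chr2:13573927-13582826, plus strand) encodes vimentin, the intermediate filament protein of mesenchymal cells. Its log2 RPM was 12.10, 11.89 and 12.03 in MEFs, 7.60, 7.91 and 6.89 in F KSR2, 8.23, 7.62 and 8.40 in F KSR4, 7.54, 8.41 and 8.29 in M KSR3, 7.11, 7.47 and 8.20 in M KSR5, and 7.21, 6.86 and 6.35 in TX 2i ESCs. Despite a fall of -4.40 ± 0.25 (SE, adjusted p = 4.08e-11), Vim had 1282 to 6644 reads in every pluripotent library. TX 2i ESCs had the lowest group mean.

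Snai1 (chr2:167538195-167542814, plus strand) encodes Snail, a repressor of Cdh1. Its log2 RPM was 6.91, 5.97 and 6.30 in MEFs, 0.89, 1.45 and 4.01 in F KSR2, 3.25, 2.71 and 3.08 in F KSR4, 2.25, 2.78 and 2.72 in M KSR3, 1.38, 1.93 and 2.38 in M KSR5, and 1.91, 1.71 and 1.96 in TX 2i ESCs. F KSR2 replicate 3, with 264 reads against 33 and 51 in the other two libraries of that line, was the highest pluripotent library. The fall from MEFs was -4.10 ± 0.43 (SE, adjusted p = 1.48e-07).

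Snai2 (chr16:14705852-14709395, plus strand) encodes Slug, a second repressor of the same family. MEFs had log2 RPM of 6.64, 5.69 and 5.70, and the 15 pluripotent libraries ran from -4.04 to 0.47 with a median of -0.41. These values rest on 1 to 27 reads a library, the lowest in F KSR2 replicate 3. The fall of -6.64 ± 0.57 (SE, adjusted p = 1.15e-08) was the largest among the 7 mesenchymal genes in this comparison.

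Zeb1 (chr18:5591860-5775467, plus strand) and Zeb2 (chr2:44983634-45117395, minus strand) encode related zinc finger repressors of Cdh1. Zeb1 had log2 RPM of 6.28, 6.35 and 5.98 in MEFs, 4.87, 4.32 and 4.17 in F KSR2, 4.14, 3.88 and 4.34 in F KSR4, 4.48, 4.77 and 4.73 in M KSR3, 4.07, 3.92 and 4.54 in M KSR5, and 5.25, 4.51 and 4.89 in TX 2i ESCs. Its fall of -1.75 ± 0.18 (SE, adjusted p = 1.61e-07) was the smallest of the 7. Zeb2 had log2 RPM of 6.45, 6.39 and 6.18 in MEFs, 1.01, 1.56 and -0.13 in F KSR2, 1.70, 2.22 and 1.02 in F KSR4, 1.42, 1.50 and 1.00 in M KSR3, 0.63, 1.23 and 1.50 in M KSR5, and -1.83, -4.22 and -2.39 in TX 2i ESCs. TX 2i ESCs held 5, 1 and 3 reads of Zeb2, below every KSR-iPSC library, which held 15 to 84. The fall of Zeb2 from MEFs was -5.92 ± 0.43 (SE, adjusted p = 1.25e-09). The row of Zeb1 carries the identifier of another gene and was matched by its symbol and its position. An antisense gene, Zeb2os, overlaps Zeb2, and the study's methods describe counting by strand.

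Twist1 (chr12:33957671-33959817, plus strand) encodes a helix-loop-helix factor of mesenchymal cells. Its log2 RPM was 6.67, 5.94 and 6.35 in MEFs, 2.81, 0.99 and 3.02 in F KSR2, 3.85, 3.29 and 2.20 in F KSR4, 1.22, 2.25 and 1.71 in M KSR3, 0.82, 1.13 and 4.13 in M KSR5, and 1.84, 2.53 and 2.68 in TX 2i ESCs. M KSR5 replicate 3 and F KSR4 replicate 1 were the highest pluripotent libraries, with 303 and 261 reads. The fall from MEFs was -4.02 ± 0.55 (SE, adjusted p = 3.65e-06). For Cdh2, Vim, Snai1, Snai2, Zeb1 and Twist1, groups that were neighbours in level overlapped among the 5 pluripotent groups, whereas TX 2i ESCs did not overlap with the next group for Zeb2.

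Compared per length of annotated exons, Vim was the most abundant of the 10 genes in MEFs, with a mean of 868 RPM per kb, followed by Snai1 with 53.8, Twist1 with 50.1 and Snai2 with 33.5. Cdh2, Zeb1 and Zeb2 had 13.2, 7.23 and 4.07 RPM per kb there. Over the 15 pluripotent libraries the means were 85.8 for Cdh1, 59.3 for Epcam, 44.8 for Vim and 9.99 for Cldn6. The order differed between groups, since in M KSR3 Vim had 59.0, Cdh1 58.8 and Epcam 26.7 RPM per kb, and in TX 2i ESCs Cdh1 had 95.1, Epcam 33.0 and Vim 24.3. The 6 other mesenchymal genes had means between 0.102 (Zeb2) and 3.83 (Twist1) RPM per kb. Exon lengths join the exons of all GENCODE transcripts, which can be longer than the transcripts used in these cells.

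The 7 mesenchymal genes did not fall to the same share of their MEF level. Zeb1 was at 19.8 to 51.2% of the MEF mean in the 15 pluripotent libraries, with a median of 30.0%. The medians were 5.85% for Twist1, 5.47% for Snai1, 4.70% for Vim, 3.65% for Cdh2, 2.50% for Zeb2 and 1.11% for Snai2. The median of the 15 fibroblast markers was lower still, at 0.0524 to 0.694% of its MEF level. Among these markers, of which those named here were chosen after their values were seen, the collagen genes Col1a1 and Col1a2 were at most 0.477% and 0.615%, and Fap and Lum were at 0 reads in 13 and 12 of the 15 libraries. Zeb1, Vim, Twist1, Snai1 and Cdh2 were above the fibroblast marker median of the same library in 15 of 15 libraries, and Snai2 and Zeb2 in 14 of 15. The exceptions were Snai2 in F KSR2 replicate 3 and Zeb2 in TX 2i ESCs replicate 2. Some fibroblast markers lay well above the marker median. Thy1, a surface protein, was at 4.04 to 26.2% of its MEF level, and at 17.5 to 26.2% in TX 2i ESCs. Pdgfra, a growth factor receptor, had its highest values, 38.7 to 40.0%, in the 3 libraries of M KSR3. The fibroblast marker median was 0.0524 to 0.204% in those libraries. Their sum of 8 primitive endoderm markers was 166 to 203 RPM, against at most 83.1 RPM in any other pluripotent library. TX 2i ESCs do not derive from these MEFs, and the source of Thy1 and Pdgfra RNA was not tested.

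**Figure D2:**
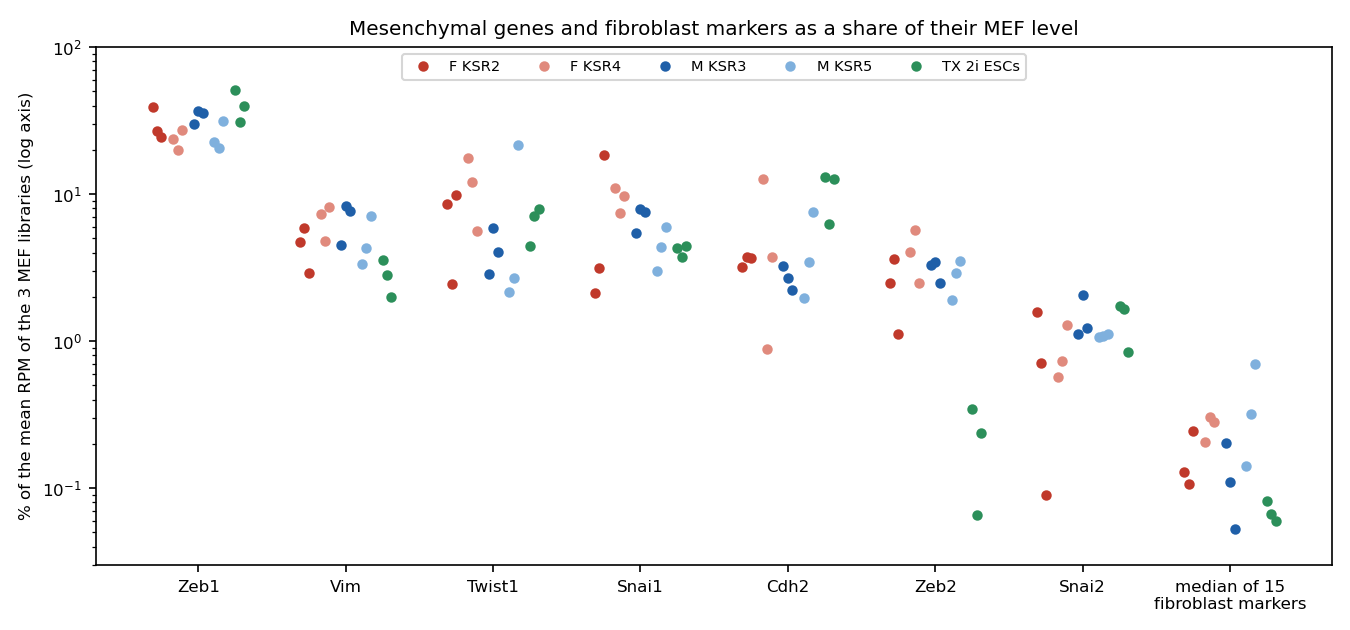
RPM of 7 mesenchymal genes in each of the 15 pluripotent libraries as a percentage of their mean in the 3 MEF libraries (log axis), beside the median percentage of 15 fibroblast markers in the same libraries. Zeb1 lies at 19.8 to 51.2% and the marker median at 0.0524 to 0.694%, and Zeb2 in TX 2i ESCs lies below Zeb2 in the other groups.

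M KSR5 replicate 3, the library with the most Twist1, also had the highest fibroblast marker median, 0.694%, and a summed marker level of 230 RPM against 48.7 and 54.6 RPM in the other two libraries of that line. There Twist1 reached 21.5% of its MEF level, against 2.17 and 2.68%, and Cdh2 7.54%, against 1.97 and 3.47%. The part of these markers in the result was not tested. F KSR4 replicate 1, with Twist1 at 17.6% and Cdh2 at 12.6%, had a marker median of 0.205%, below the other two libraries of F KSR4.

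Genes of the same pathway, from lists chosen with earlier results known, mostly moved with the 10 genes. The counts below stand beside 42.1% of all genes tested called higher and 32.5% called lower. Of 25 genes of epithelial junctions and surface, 21 rose, 2 fell and 2 did not pass the test, with a median log2 difference of 4.78, beside 0.21 over all genes. Cldn4, another claudin, rose by 8.75 ± 0.45 and Tjp3, a tight junction scaffold, by 7.99 ± 0.36 (SE). The genes that fell were Cdh3, which encodes P-cadherin, with -1.04 ± 0.22, and Ctnnd1, which encodes p120 catenin, with -0.45 ± 0.13. All 9 tested genes of 10 epithelial regulators rose. The largest were Elf3, an epithelial transcription factor, with 10.09 ± 0.35, and Esrp1, a splicing regulator of epithelial cells, with 8.73 ± 0.34.

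All 16 genes for mesenchymal products fell, with a median of -3.97, led by Cdh11, a mesenchymal cadherin, with -11.45 ± 0.85 and Tnc, the matrix protein tenascin C, with -11.30 ± 1.28. Of 11 further mesenchymal transcription factors, 8 fell, among them Prrx1 with -11.78 ± 0.78 and Twist2 with -8.98 ± 0.36. In this list Snai3, the third Snail gene, rose by 4.13 ± 0.59 and Foxq1, a forkhead factor, by 3.30 ± 0.70. The Snail genes thus split, with Snai1 and Snai2 lower and Snai3 higher, while Twist1 and Twist2 both fell. On the log2 RPM scale Snai3 had a mean of -2.26 in MEFs (SD 1.54, n = 3) and of 1.87 over the pluripotent libraries (SD 1.04, n = 15). Of 14 genes of TGF-beta signalling, 11 fell and 3 did not pass the test. The largest fall was -10.64 ± 0.73 for Tgfb3, a ligand. Of the other marker lists, 4 of 6 tested primitive endoderm markers rose and 1 fell, and 3 of 4 mesoderm markers rose and 1 fell. Among neural markers 3 of 6 rose and 1 fell, and 1 of 2 trophectoderm markers fell. The same shares of all genes, 42.1% higher and 32.5% lower, apply to these short lists, and no list was tested as a set. Fitted differences of genes with 0 reads in a group depend on the value at which 0 reads are held.

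**Figure D3:**
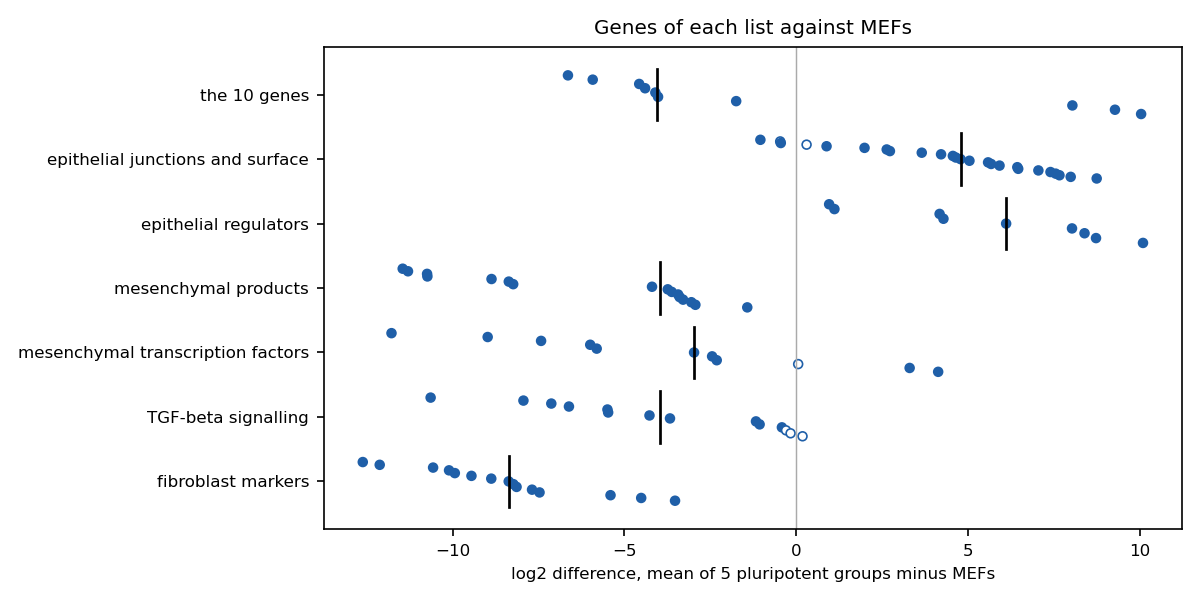
Log2 difference of the mean of 5 pluripotent groups from MEFs (x axis) for each tested gene of the 10 genes, the 5 pathway lists and the fibroblast markers (y axis). Filled points passed the adjusted p of 0.05, open points did not, and bars are list medians, which are 4.78 for epithelial junctions and surface and -3.97 for mesenchymal products.

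Set against TX 2i ESCs, the KSR-iPSCs differed in 6 of the 10 genes, with 4 higher and 2 lower, where 11.4% of all genes tested were called higher and 12.6% lower. Zeb2 differed most, with 1.22 ± 0.59 (SD, n = 12) in KSR-iPSCs and -2.82 ± 1.25 (n = 3) in TX 2i ESCs on the log2 RPM scale, and with no overlap of the libraries. The log2 difference was 4.04 ± 0.44 (SE, adjusted p = 7.85e-06), and Zeb2 was called in each alternative in which it was tested. With 1 to 5 reads in TX 2i ESCs, the size of the difference depends on how low values are handled. It was 1.53 on the log2(RPM + 1) scale and 3.33 to 4.53 with 1 library left out. Vim was 1.00 ± 0.25 higher in KSR-iPSCs (adjusted p = 0.00795), a call that was lost without TX 2i ESCs replicate 3, where the difference was 0.78 (adjusted p = 0.0848).

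Epcam was 0.86 ± 0.26 (SE) higher in KSR-iPSCs (adjusted p = 0.0232). The call was lost without TX 2i ESCs replicate 1 (difference 0.77) or replicate 3 (0.81), and the libraries of M KSR3 lay within or below those of TX 2i ESCs. Cdh2 was lower in KSR-iPSCs by -1.61 ± 0.53 (adjusted p = 0.0344). That call was lost without TX 2i ESCs replicate 1, TX 2i ESCs replicate 3 or M KSR3 replicate 3, and with no filter on low values (adjusted p = 0.0694). Cldn6 with 0.99 ± 0.35 (adjusted p = 0.0470) and Zeb1 with -0.53 ± 0.19 (adjusted p = 0.0493) were just under the threshold, and lost the call in 12 and 15 of 23 alternatives.

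The other 4 genes were not called. Cdh1 differed by -0.25, with a 95% interval of -1.65 to 1.15 in the fit that includes the unequal MEF libraries and of -0.72 to 0.21 in a fit of the 15 pluripotent libraries. The intervals were -0.38 to 1.47 for Snai1, -1.86 to 0.61 for Snai2 and -1.25 to 1.11 for Twist1, which leaves room for differences of 2-fold. Among the pathway genes, the largest called increases in KSR-iPSCs were of Acta2, a smooth muscle actin, with 6.25 ± 1.08, Tagln, which encodes transgelin, with 5.07 ± 1.00, and Tnc with 4.64 ± 1.31. Mean log2 RPM in TX 2i ESCs was -3.45 for Acta2, -1.35 for Tagln and -4.27 for Tnc, the last at the value held for 0 reads. In KSR-iPSCs the means were 2.80 (SD 2.39), 3.72 (SD 2.21) and 0.37 (SD 2.82). The sizes of these differences thus depend on how low values are handled. The largest decreases were of Gsc, a homeobox gene of early mesoderm, with -3.27 ± 0.58, Cldn3 with -2.76 ± 0.52 and the TGF-beta coreceptor gene Tgfbr3 with -1.65 ± 0.43. Of 15 tested mesenchymal products, 8 were higher and 4 lower in KSR-iPSCs, with a median of 1.59 beside -0.02 over all genes. Among all genes tested, 11.4% were called higher and 12.6% lower in this comparison. The fibroblast marker sum was 68.8 to 106 RPM in TX 2i ESCs, within the 43.0 to 230 RPM of the KSR-iPSCs, and 4 of 12 tested fibroblast markers were higher and 2 lower in KSR-iPSCs. Of the other marker lists, 5 of 6 primitive endoderm markers were higher, 1 of 10 pluripotent cell markers was higher and 4 were lower, and 3 of 6 neural markers were higher and 2 lower. Their part in the result was not tested.

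**Figure D4:**
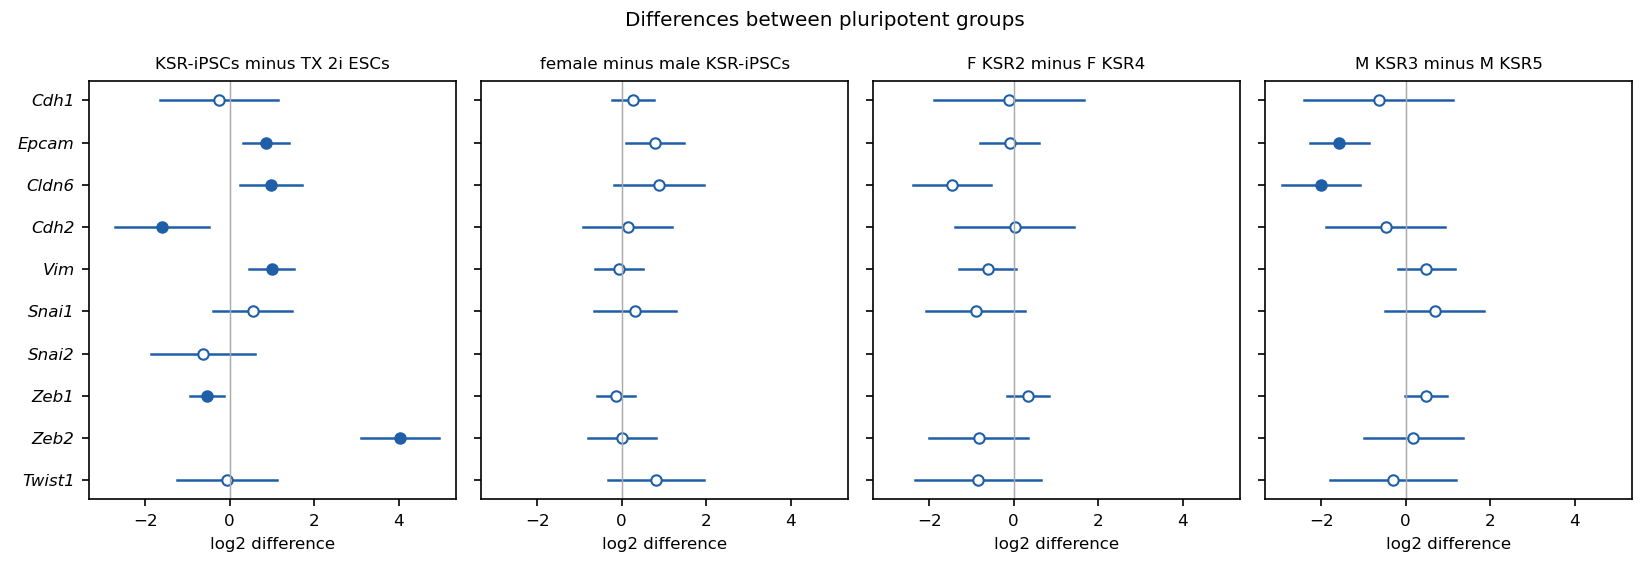
Log2 differences (x axis) of the 10 genes (y axis) in 4 comparisons among the pluripotent groups, with 95% intervals from limma. Filled points passed the adjusted p of 0.05. Zeb2 has the largest difference of KSR-iPSCs from TX 2i ESCs, 4.04, and Snai2 was not tested in the last 3 panels.

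Between the 6 female and 6 male KSR-iPSC libraries, none of the 9 genes tested was called (limma), where 2.87% of all genes were called. At an unadjusted p under 0.05 there was 1 gene, Epcam, with 7.42 ± 0.30 (SD) in the female and 6.63 ± 0.90 in the male libraries (log2 difference 0.79, 95% interval 0.11 to 1.47, adjusted p = 0.197). In a fit of all 18 libraries, Epcam passed with an adjusted p of 0.0371. The low value of the male group came from M KSR3, since M KSR5 was level with the female lines. The narrowest 95% intervals among the other 8 genes were -0.22 to 0.77 for Cdh1, -0.62 to 0.50 for Vim and -0.58 to 0.31 for Zeb1. Libraries of 1 line share a clone, and each sex is 1 embryo with 2 lines.

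The 2 male lines differed in 2 genes, where 4.71% of all genes were called. On the log2 RPM scale Epcam had a mean of 5.84 (SD 0.35) in M KSR3 against 7.41 (SD 0.23) for the 3 libraries of M KSR5, a difference of -1.57 ± 0.33 (SE, adjusted p = 0.0119). Cldn6 was 2.44 ± 0.07 and 4.45 ± 0.19, a difference of -2.01 ± 0.44 (SE, adjusted p = 0.0145). In both genes, all 3 libraries of M KSR3 lay below all 3 of M KSR5. Both calls were lost without M KSR3 replicate 2, M KSR3 replicate 3 or M KSR5 replicate 2, with differences between -1.45 and -1.50 for Epcam and between -1.96 and -2.04 for Cldn6. Of the pathway lists, chosen after their values were seen, Esrp1 (-2.07), Grhl2 (-1.93), Rab25 (-2.43) and Cldn3 (-2.94) were the epithelial genes also called lower in M KSR3. These were 2 of 24 tested genes of epithelial junctions and surface and 2 of 9 tested epithelial regulators. The other 22 and 7 were not called, and 2.18% of all genes were called lower. In the same libraries the summed level of 8 primitive endoderm markers was 166 to 203 RPM in M KSR3. It was 30.6 to 83.1 RPM in M KSR5. Of 6 tested, Gata6 (2.77), Gata4 (2.12) and Dab2 (1.53) were called higher in M KSR3, beside 2.53% of all genes. The part of these cells or genes in the lower Epcam and Cldn6 was not tested.

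The 2 female lines differed in none of the 9 genes tested (limma), where 1.13% of all genes were called. At an unadjusted p under 0.05 there was 1 gene, Cldn6, for which the 3 libraries of F KSR2 lay below the 3 of F KSR4 (difference -1.45, 95% interval -2.38 to -0.53, adjusted p = 0.109). Cldn6 passed without F KSR4 replicate 1 (-1.63, adjusted p = 0.0406). Snai1 passed without F KSR2 replicate 3 (-1.84, adjusted p = 0.0274), so that this library decides the value for Snai1.

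Over the 15 pluripotent libraries, Epcam and Cldn6 varied together (Pearson r = 0.84, Spearman rho = 0.78), and both varied against Zeb1 (r = -0.77 and -0.71, rho = -0.78 and -0.66). Vim varied with Zeb2 (r = 0.72, rho = 0.68), and Cdh1 was less closely related to Epcam (r = 0.50, rho = 0.49). In TX 2i ESCs, Zeb2 rested on 1 to 5 reads and Vim had its lowest group mean. The relation of Vim to Zeb2 without this group was not tested. All of these correlations are descriptions over 5 groups of 3 libraries in which the libraries of a group share a line and a medium. The genes most like a member over the same libraries, among 7610 genes above 3 log2 RPM in all 15, were Emb (r = 0.93), Cenpw (0.88) and Mapk8ip1 (0.87) for Epcam and Atpif1 (0.90), Pmm1 (0.88) and Mif (0.88) for Cldn6. For Cdh1 they were Rnf26 (0.87), Adrbk1 (0.86) and Hsp90ab1 (0.85), for Vim Acp2 (0.87), Etfdh (0.87) and Mcam (0.83), and for Zeb1 H2-M5 (0.88), Jam2 (0.86) and Rcn1 (0.86).

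Since both parents differ by strain, reads over strain variants tell the maternal BL6 from the paternal CAST allele. X-linked reads of the male libraries fell on the allele taken as maternal in 99.8%, and those of the female KSR-iPSC libraries in 49.6%. A maternal share was given for libraries with at least 5 allelic reads. Snai1 had no allelic read in any of the 18 libraries. Zeb2 had at most 2 allelic reads in any pluripotent library and Snai2 at most 5, so that their alleles could not be followed beyond MEFs.

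Vim was read nearly equally from both alleles in MEFs, with a maternal share of 53.1, 52.1 and 52.6% over 24209 to 26903 allelic reads. In the pluripotent libraries the share was 69.9, 64.1 and 63.6% in F KSR2, 59.6, 67.6 and 68.5% in F KSR4, 67.7, 67.6 and 66.4% in M KSR3, 71.3, 69.8 and 61.0% in M KSR5, and 73.4, 77.1 and 70.5% in TX 2i ESCs. All 15 lay above all 3 MEF libraries, and by 7.20 to 25.4 percentage points above the share of chromosome 2 as a whole in the same library. Pooled over libraries the share was 52.6% (95% Wilson interval 52.2 to 52.9%) in MEFs and 66.9% (66.2 to 67.6%) in pluripotent cells. These intervals, and those of the pooled shares below, cover counting error only. They leave out the spread between libraries, which for Vim ran from 59.6 to 77.1% in the pluripotent libraries. The change of 14.3 points was matched or passed in size by 7.89% of 6475 autosomal genes with 200 or more allelic reads on both sides, for which the median change was 1.15 points.

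Zeb1 followed the same direction. Its maternal share was 50.2, 57.1 and 51.0% in MEFs and 56.5 to 76.5% in the pluripotent libraries, above the share of its chromosome in 15 of 15. Pooled, it was 53.1% (49.7 to 56.4%) in MEFs, 68.1% (65.1 to 70.9%) in KSR-iPSCs and 59.6% (54.5 to 64.6%) in TX 2i ESCs. A pluripotent library held 31 to 140 allelic reads of Zeb1, and its range overlapped with that of MEFs at the low end. Cdh2 was read from both alleles but more from the paternal one in MEFs, with 37.9% maternal reads (35.2 to 40.7%). It was at 48.3% (42.5 to 54.3%) in the pluripotent libraries, on 4 to 49 reads a library. From MEFs to all pluripotent libraries, a change as large was found in 10.5% of 6475 autosomal genes for Zeb1 (12.7 points) and in 15.6% for Cdh2 (10.5 points). Twist1 was at 45.7% (41.6 to 49.8%) in MEFs and 48.0% (41.2 to 54.9%) in the pluripotent libraries.

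Epcam was read more from the maternal allele in each pluripotent group, with 59.4% (57.8 to 61.0%) for F KSR2, 55.6% (54.0 to 57.2%) for F KSR4, 60.3% (57.7 to 62.9%) in M KSR3 and 61.0% (59.4 to 62.5%) in M KSR5. In TX 2i ESCs it was 72.1, 73.1 and 75.1% in the 3 libraries, above the 12 KSR-iPSC libraries, which ran from 51.4 to 63.7%. The lowest of them, F KSR4 replicate 2, was level with its chromosome. Chromosome 17 as a whole was at 50.8 to 52.0% in all 15 libraries. Cldn6, on the same chromosome, was at 50.6% (47.7 to 53.4%) in KSR-iPSCs and 52.3% (43.7 to 60.8%) in TX 2i ESCs.

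Cdh1 showed a maternal excess in F KSR4 and M KSR3. The share was 65.5, 69.0 and 61.1% in F KSR4 and 61.9, 59.3 and 58.1% in M KSR3, against 49.2 to 50.9% for F KSR2, 46.9 to 53.1% for M KSR5 and 51.5 to 57.4% in TX 2i ESCs. In the lines with the excess, chromosome 8 as a whole was also read more from the maternal allele, with 65.9, 65.9 and 56.5% in F KSR4 and 65.1 to 65.6% in M KSR3. It was at 48.9 to 52.2% in F KSR2 and M KSR5 and at 52.4 to 57.3% in TX 2i ESCs. In each library of M KSR3, Cdh1 lay below chromosome 8. The 2 measures moved together from line to line, and the part of the chromosome in the share of Cdh1 was not tested. The mean level of Cdh1 was 451 RPM in F KSR4, from 700, 389 and 265 RPM in its 3 libraries, and 435 RPM in TX 2i ESCs. By mean log2 RPM, TX 2i ESCs were the highest group. M KSR3, with a mean of 269 RPM, was the lowest of the 5 pluripotent groups on both scales. Other chromosomes also differed between the male lines. The maternal share of chromosome 1 was 67.9 to 68.1% in M KSR3 and 51.2 to 52.3% in M KSR5. For chromosome 15 it was 51.1 to 51.9% in M KSR3 and 56.0 to 65.1% in M KSR5. The part of such differences in the comparison of the 2 male lines was not tested. A bias of mapping towards one strain was not tested.

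**Figure D5:**
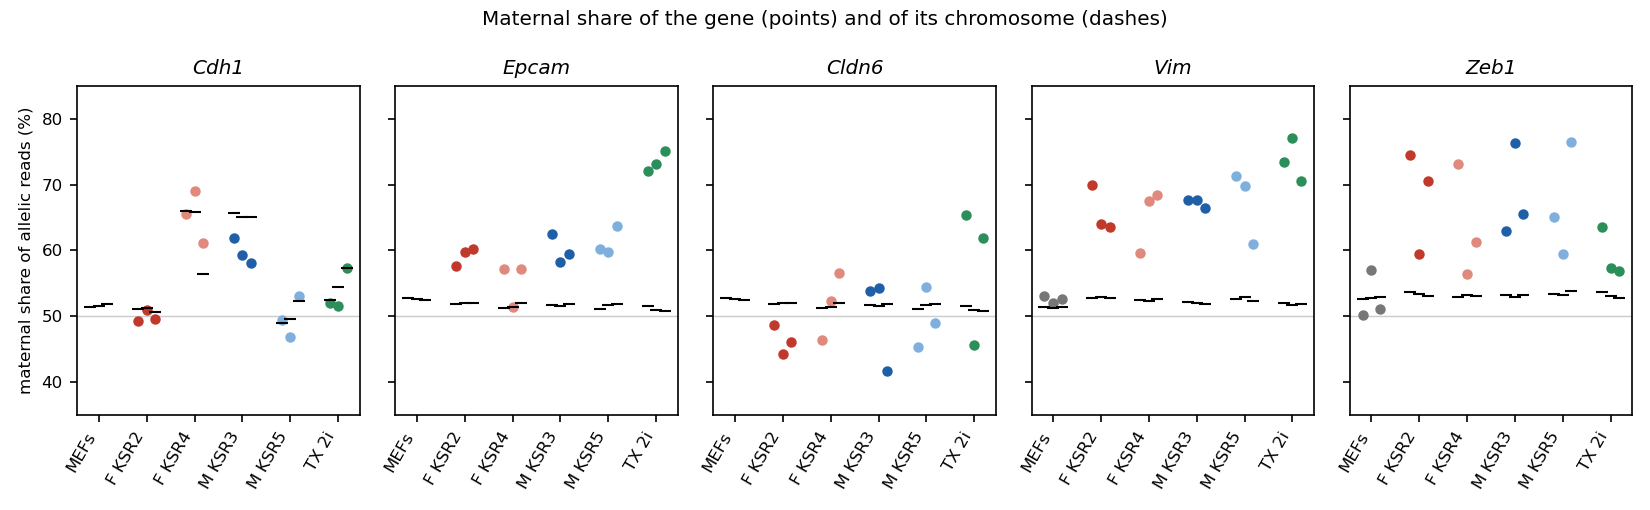
Maternal share of allelic reads (y axis, percent) for 5 genes in each library with 20 or more allelic reads (points) and of all reads on the gene's chromosome in that library (dashes), by group (x axis). Vim is at 52.1 to 53.1% in MEFs and at 59.6 to 77.1% in the pluripotent libraries. Cdh1 and its chromosome are both shifted to the maternal allele in F KSR4 and M KSR3.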

How the data were processed

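RNA of 18 libraries was sequenced, 3 for each of 6 groups. The other 82 samples of the series, DNA methylation amplicons, were not analysed here. According to the study's methods, reads were trimmed with Trim Galore (0.6.1), aligned to GRCm38 with HISAT2 (2.1.0) and counted by strand over genes in SeqMonk. Length and pairing of the reads differ between sources and were not used. The deposited values are log2 RPM (RPM being reads scaled to a common library size), made by the authors, scaled to a library total of which 82.5 to 92.3% lay on genes, with genes without reads held at 0.9 reads. At least 99.97% of values a library were within 0.05 of whole reads, from which reads, and reads of each parental genome, were recovered.

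Groups came from the sample labels. limma (3.58.1, R 4.3.3) with an intensity trend was fitted to group means on the deposited log2 values of the 18 libraries, and for sex on the 12 KSR-iPSC libraries. A gene was tested where 3 or more libraries of the comparison had log2 values over 0, and calls were at a Benjamini-Hochberg adjusted p of 0.05. Within groups no pair of libraries agreed within sampling noise (chi-square per degree of freedom 3.81 to 174). The study's methods name biological triplicates, and where these are cultures of 1 line, p-values measure the spread between such cultures. Negative binomial models were not used, since the table holds normalised values. Shares have Wilson intervals on pooled reads, which leave out the spread between libraries, and exon lengths came from GENCODE M21. Alternatives were other filters, a pseudocount of 1, median centring, limma-voom on the recovered reads, no trend, only the groups compared, a replicate block and each library left out. The test was checked on simulated data.

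The 10 genes and the lists were chosen with earlier results of these data known. The text names the 10 genes and, in each of 5 pathway lists, the 2 largest called increases and decreases against MEFs, the 3 largest in each direction between KSR-iPSCs and TX 2i ESCs over these lists, and the 3 genes of highest Pearson r for members above 3 log2 RPM. One gene that this rule names is not reported here.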

Additional observations from a re-analysis of the deposited data

Results flagged for a closer look

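In 20 sets of 6 libraries (10 genes, female and male KSR-iPSCs), 2 libraries lay far from the other 5 of their set by Dixon's ratio of gap to range, where chance flags about 1 set in 20. Snai2 in F KSR2 replicate 3 was at -4.04 log2 RPM, which is 1 read. Snai2 in M KSR3 replicate 2 was at 0.47 log2 RPM, which is 27 reads. Both lie among the lowest counts of the 10 genes.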

How the results depend on the processing

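The counts of genes called against MEFs (3 higher, 7 lower, and 10 in each of the 5 groups) kept these values under the alternative filters, pseudocount, scaling, trend and limma-voom. With 1 library left out they were 8 to 10 for single groups, because genes then missed the filter of 3 libraries. For KSR-iPSCs against TX 2i ESCs, 6 genes were called, 3 without a filter on low values, and 1 to 6 with 1 library left out (3 without M KSR3 replicate 3, 2 without TX 2i ESCs replicate 1 and 1 without TX 2i ESCs replicate 3). For female against male lines the count of 0 became 1, Epcam, with all 18 libraries in the fit. With 1 library left out the count was 0 to 1 for F KSR2 against F KSR4 and 0 to 2 for M KSR3 against M KSR5. Apart from the filter and the libraries left out, the cause was not tested.

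Of 47 results for single genes over 5 comparisons, 27 kept call and direction in each alternative, 0 called values reversed, and 10 values that were not called changed sign. Libraries of the same replicate number in different groups had a median correlation of deviations of 0.06, with 16 of 45 pairs over 0.1. For libraries of different number in different groups the median was -0.018, with 13 of 90 pairs over 0.1. Whether replicate numbers pair the libraries was thus not settled, and the main fit used no pairing. A replicate block gave 3 and 7 genes, 10 in each group against MEFs, 6 against TX 2i ESCs, 0 for sex, 0 for the female lines and 2 for the male lines, and so changed no count. Depth limits Snai2 and Zeb2, with 1 to 27 and 1 to 84 reads in a pluripotent library, and their alleles. With a minimum of 10 allelic reads, 39 in place of 43 shares by gene and group could be given.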
